A study of Mus musculus with 24 samples.

Results

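The genes described here encode the machinery that docks synaptic vesicles at the presynaptic membrane and fuses them with it, together with close relatives that act on other membranes. They were taken by gene symbol from the families Syt, Stx, Stxbp, Cplx, Vamp, Rims, Syngr and Doc2, the synapsins Syn1, Syn2 and Syn3, the genes Snap23, Snap25, Snap29, Snap47 and Snap91, and Rab3a, Rab3b, Rab3c and Rab3d. This gave 73 of the 18194 genes that have a probe set naming 1 gene, and the brightest probe set on average stood for each gene. Of the 73 members, 65 exceeded the median of the array on 2 arrays or more and were tested, 54 of them in all 24 arrays and 11 in some. The other 8 members, Cplx4, Stx19, Syngr4, Syt2, Syt6, Syt10, Sytl1 and Sytl4, were above it in no array.

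Messenger RNA was measured on 24 Affymetrix arrays from cultured mouse neurons, in 12 groups of 2 arrays. The groups were Npas4 knockout (KO) cultures derived from the medial ganglionic eminence (MGE), wild-type (WT) MGE cultures, Npas4 KO cortex-derived (CTX) cultures and WT CTX cultures, each at 0, 1 and 6 h in 55 mM KCl, which depolarizes the membrane. All cells came from C57Bl/6 littermate embryos at embryonic day 14. All cultures, the 0 h controls included, had been silenced overnight with TTX, a sodium channel blocker, and AP-5, an NMDA receptor blocker. Time in culture is 10 days by the labels and 9 days by the series text. MGE progenitors give rise mainly to GABAergic interneurons and cortical progenitors mainly to glutamatergic neurons, and Npas4 is a transcription factor induced by neuronal activity.

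Vesicle fusion is driven by SNARE proteins, of which syntaxin-1A and SNAP-25 sit in the plasma membrane and VAMP (synaptobrevin) in the vesicle. Synaptotagmins and Doc2 proteins sense calcium, complexins clamp and promote fusion, and syntaxin-binding proteins assemble or block the SNARE complex. RIM proteins and Rab3 GTPases tether vesicles at the active zone, and synapsins hold the reserve vesicles in clusters. The remaining syntaxins and VAMPs serve the Golgi apparatus, endosomes, lysosomes or non-neuronal secretion.

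Npas4 followed the genotype labels. Its log2 intensity lay between 5.35 and 5.82 in KO arrays at 0 h and between 5.70 and 5.94 in WT arrays at 0 h. In depolarized arrays it lay between 6.80 and 7.82 in KO cultures, between 8.59 and 12.04 in MGE WT and between 11.73 and 12.03 in CTX WT. Array medians lay between 6.84 and 6.92 on the log2 scale. Across tested genes, both arrays of a pair had correlations of 0.965 to 0.992, except in MGE WT at 0 h, where the correlation was 0.951 and the members differed by a median of 0.39 on the log2 scale. Apart from the counts of other release pathway genes, results that rest on that group are given with and without its arrays where the call changed. Of the 10 interneuron markers, 9 were higher in MGE WT than in CTX WT at 0 h, and 6 of 7 tested excitatory markers were lower, in the direction of the tissue labels. All log2 values below are array intensities of single probe sets, and changes are differences of group means with their standard errors (SE). A member was called at a limma adjusted p under 0.05 over all tested genes. In bulk cultures, fewer cells of a type and less RNA per cell cannot be told apart.

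After 6 h of KCl a minority of the members changed on the probe set that stood for each gene. In MGE KO 3 members rose and 5 fell, where 4.84% of all tested genes rose, 12.3% fell and 17.1% were called in either direction. In MGE WT 6 members rose and 7 fell, against 9.53%, 15.7% and 25.3% of all genes. In CTX KO 3 members rose and 10 fell, against 11.3%, 24.9% and 36.2% of all genes. In CTX WT 3 members rose and 7 fell, against 10.5%, 24.8% and 35.2% of all genes. As shares of the 65 tested members, 12.3% were called in MGE KO, 20% in MGE WT, 20% in CTX KO and 15.4% in CTX WT. The median absolute log2 change of the members was 0.17 in MGE KO, 0.30 in MGE WT, 0.19 in CTX KO and 0.19 in CTX WT, beside 0.25, 0.35, 0.37 and 0.37 for all tested genes. In all, 22 members were called in at least 1 of the 4 series, 1 of them in all 4, and 43 in none. The 44 calls include 12 that were kept under every alternative tried. These 12 belong to 8 members: Stxbp4, Rab3d, Stx5a, Stxbp5l, Syt4, Syt12, Stx11 and Doc2g. No share of all genes is given beside the counts with an array left out, here and below. For MGE WT the count depends on 1 array: 4 members were called without the second 0 h array (Doc2g, Stxbp4, Syt12 and Syt4) and 27 without the first. It was 6 without either 6 h array. In MGE KO the count was 3 without the first 0 h or second 6 h array and 4 without the first 6 h array. In CTX WT it was 6 without the first 0 h array and 5 without the second 0 h or first 6 h array, and in CTX KO it was 5 to 8 without any 1 of the 4 arrays.

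**Figure D1:**
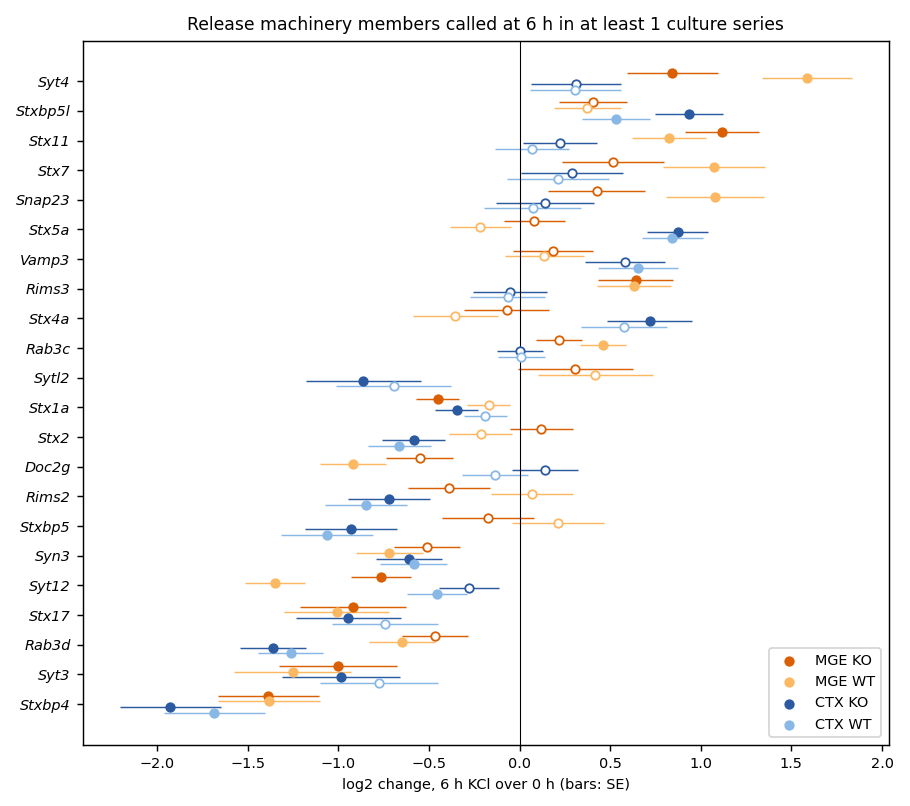
Log2 change at 6 h of KCl over 0 h (horizontal axis; bars are SE) for the 22 members called in at least 1 culture series, 2 arrays per group; filled points passed the test and open points did not. Stxbp4 lies lowest, and its change ranges between -1.38 and -1.93 over the 4 series.

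Stxbp4, whose protein binds syntaxin-4 and is known from glucose transporter trafficking, fell in all 4 series. Its log2 intensity at 6 h was 8.01 and 8.50 in MGE KO, against 9.54 and 9.74 at 0 h. In MGE WT it was 7.89 and 8.38 at 6 h, against 9.55 and 9.48 at 0 h. In CTX KO it was 7.44 and 8.03 at 6 h, against 9.61 and 9.71 at 0 h. Every 6 h array lay below every 0 h array in these 3 series and also in CTX WT, where the values were 7.38 and 8.41 at 6 h against 9.58 in both 0 h arrays. The log2 change was -1.39 ± 0.28 in MGE KO (adjusted p = 0.00327), -1.38 ± 0.28 in MGE WT (adjusted p = 0.00282), -1.93 ± 0.28 in CTX KO (adjusted p = 8.76e-05) and -1.69 ± 0.28 in CTX WT (adjusted p = 0.000294). In the CTX cultures this is 3.8-fold lower in KO and 3.22-fold lower in WT. The MGE calls were lost without the first 6 h array, with -1.14 in either genotype. Averaged over all Stxbp4 probe sets the CTX falls were smaller, -1.02 in KO and -0.86 in WT.

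Rab3d, a Rab3 GTPase known from secretory granules outside the nervous system, fell in CTX cultures of both genotypes. It had 7.93 and 8.17 at 6 h in CTX KO, against 9.22 and 9.60 at 0 h. In CTX WT it had 8.0 and 8.32 at 6 h, against 9.41 and 9.45 at 0 h, so that the times did not overlap in either genotype. The change was -1.36 ± 0.18 in CTX KO (adjusted p = 4.34e-05) and -1.26 ± 0.18 in CTX WT (adjusted p = 8.84e-05). In MGE KO it was -0.47 (adjusted p = 0.0984). The MGE WT change of -0.65 passed, but it did not without the second 0 h array (-0.53), without the first 6 h array (-0.41) or after cyclic loess scaling (-0.48).

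Stx5a, the syntaxin of transport between the endoplasmic reticulum and the Golgi apparatus, rose in CTX cultures. Its log2 intensity at 6 h was 11.92 and 11.98 in CTX KO, against 11.15 and 11.00 at 0 h. In CTX WT it was 11.70 and 12.33 at 6 h, against 11.30 and 11.05 at 0 h, again without overlap. The change was 0.87 ± 0.17 in CTX KO (adjusted p = 0.000919) and 0.84 ± 0.17 in CTX WT (adjusted p = 0.00129), a 1.83-fold and a 1.79-fold rise. In MGE cultures it did not pass the test. There its values at 6 h lay between 12.05 and 12.13.

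The promoters of these 3 genes are shown because their transcripts moved in both genotypes of CTX cultures. The sequences are RefSeq windows on GRCm38.p6, from 250 bases before to 50 bases after the gene start, 5′ to 3′ on the gene's strand. Capitals mark TGACG, a shortened form of the cAMP response element TGACGTCA, or TCGTG, the core of the motif described for Npas4 with its partner proteins, on either strand, where the reverse strand reads CGTCA or CACGA. Any TGACGTCA also contains TGACG.
Stxbp4, chr11:90638059-90638358, minus strand: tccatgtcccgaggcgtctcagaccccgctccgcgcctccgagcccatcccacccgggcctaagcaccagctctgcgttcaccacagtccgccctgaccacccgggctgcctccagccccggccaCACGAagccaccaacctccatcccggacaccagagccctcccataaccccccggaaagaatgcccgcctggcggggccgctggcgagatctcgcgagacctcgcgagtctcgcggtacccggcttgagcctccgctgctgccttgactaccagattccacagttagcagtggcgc
Rab3d, chr9:21918134-21918433, minus strand: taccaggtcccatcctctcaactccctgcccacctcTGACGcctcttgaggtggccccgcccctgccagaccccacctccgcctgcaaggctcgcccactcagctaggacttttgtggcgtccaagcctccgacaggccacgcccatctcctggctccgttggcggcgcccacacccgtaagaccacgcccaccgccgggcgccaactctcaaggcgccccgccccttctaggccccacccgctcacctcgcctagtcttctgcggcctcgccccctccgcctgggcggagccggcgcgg
Stx5a, chr19:8741174-8741473, plus strand: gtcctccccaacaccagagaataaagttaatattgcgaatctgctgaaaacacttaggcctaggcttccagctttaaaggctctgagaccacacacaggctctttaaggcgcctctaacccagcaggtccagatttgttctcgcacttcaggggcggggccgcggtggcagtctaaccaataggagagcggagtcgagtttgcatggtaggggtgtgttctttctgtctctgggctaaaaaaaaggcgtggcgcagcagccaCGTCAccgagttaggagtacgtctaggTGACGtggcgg

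The Stxbp4 window holds 1 TCGTG and 0 TGACG, the Rab3d window 1 TGACG and 0 TCGTG, and the Stx5a window shown, 1 of 2 for that gene, 2 TGACG and 0 TCGTG. RefSeq windows were at hand for 54 of the 73 members, 67 windows in all. TGACG stood in 16 of these 67 windows (23.9%), beside 20.8% of 32851 windows of all genes. TGACGTCA stood in 2 (2.99%), those of Stxbp3 and Syn1, beside 1.79% of all. TCGTG stood in 10 (14.9%), beside 16% of all. The shares for the members lie near those for all genes, and a match is a string of letters, not a bound site.

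Stxbp5l, the tomosyn-2 gene, whose product competes with VAMP for syntaxin, had 10.64 and 10.46 at 6 h in CTX KO, against 9.53 and 9.70 at 0 h. It rose by 0.94 ± 0.19 on the log2 scale (adjusted p = 0.00118). In CTX WT the rise of 0.53 passed but failed without the first 0 h array (0.53), the second 0 h array (0.54) or the first 6 h array (0.27), and also with all its probe sets averaged (0.34). Its paralogue Stxbp5, the tomosyn-1 gene, fell in CTX on its main probe set, by 0.93 in KO and by 1.06 in WT. The call in CTX KO was lost without the second 0 h array (-0.87), and averaging its probe sets brought the change to -0.04 in KO and -0.19 in WT, with neither called.

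Syt4, a synaptotagmin of dense-core vesicles with weak calcium binding, rose in MGE cultures. At 6 h it had 12.79 and 12.52 in MGE KO, against 11.72 and 11.89 at 0 h. In MGE WT it had 12.85 and 12.48 at 6 h, against 11.64 and 10.52 at 0 h, and the second 0 h array was the lowest of all 24. The change was 1.58 ± 0.25 in MGE WT (adjusted p = 0.000539), a 3-fold rise, and it was still called without that array (1.03). In MGE KO it was 0.84 ± 0.25 (adjusted p = 0.0311), a call lost when any of its 4 arrays was left out, with 0.71 to 0.98. In CTX cultures Syt4 was already high, between 13.36 and 13.61 at 0 h, and did not pass.

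Syt12, a synaptotagmin that lacks the calcium-binding residues, fell in MGE cultures. At 6 h it had 5.98 and 5.92 in MGE KO, against 6.73 and 6.70 at 0 h. In MGE WT it had 5.84 and 5.89 at 6 h, against 6.84 and 7.58 at 0 h. All 4 of these 6 h values lay below the array medians and below their own 0 h values. Both 0 h values in MGE KO also lay below their array medians (6.88 and 6.92), as did the first in MGE WT. Among these arrays the second 0 h array of MGE WT alone lay above its median. That array counts toward the filter on dim probe sets, so the MGE WT test is not independent of the filter. The change was -0.77 ± 0.17 in MGE KO (adjusted p = 0.00521) and -1.35 ± 0.17 in MGE WT (adjusted p = 8.95e-05). In CTX WT the fall of 0.46 lost its call when any 1 of the 4 arrays was left out (-0.44 to -0.48).

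Stx11, a syntaxin known from granule release of cytotoxic lymphocytes, rose in MGE cultures. It had 9.71 and 9.95 at 6 h in MGE KO, against 8.88 and 8.54 at 0 h. In MGE WT it had 9.39 and 9.70 at 6 h, against 8.88 and 8.58 at 0 h. In CTX arrays its values stayed between 5.31 and 5.96, below the array median. The change was 1.12 ± 0.20 in MGE KO (adjusted p = 0.00164) and 0.82 ± 0.20 in MGE WT (adjusted p = 0.00962). The call in MGE WT was lost without the second 0 h array (0.67) or the second 6 h array (0.67). Microglial markers, of which 0 of 5 tested were called at 6 h in either MGE genotype, gave list means of 6.63 to 7.02 in MGE KO at 6 h against 6.46 to 7.20 at 0 h. In MGE WT those means were 6.64 to 7.19 at 6 h against 6.96 to 7.28 at 0 h. The SEs of the single marker changes in MGE WT were wide, up to 0.85 for C1qb and 1.30 for Csf1r. The part of microglia in the Stx11 rise was not tested. Doc2g, a Doc2 protein without calcium-dependent binding, fell in MGE WT by 0.92 ± 0.18 (adjusted p = 0.00249), with 6.34 and 6.36 at 6 h against 7.13 and 7.41 at 0 h. Its 6 h values lay below the array medians.

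**Figure D2:**
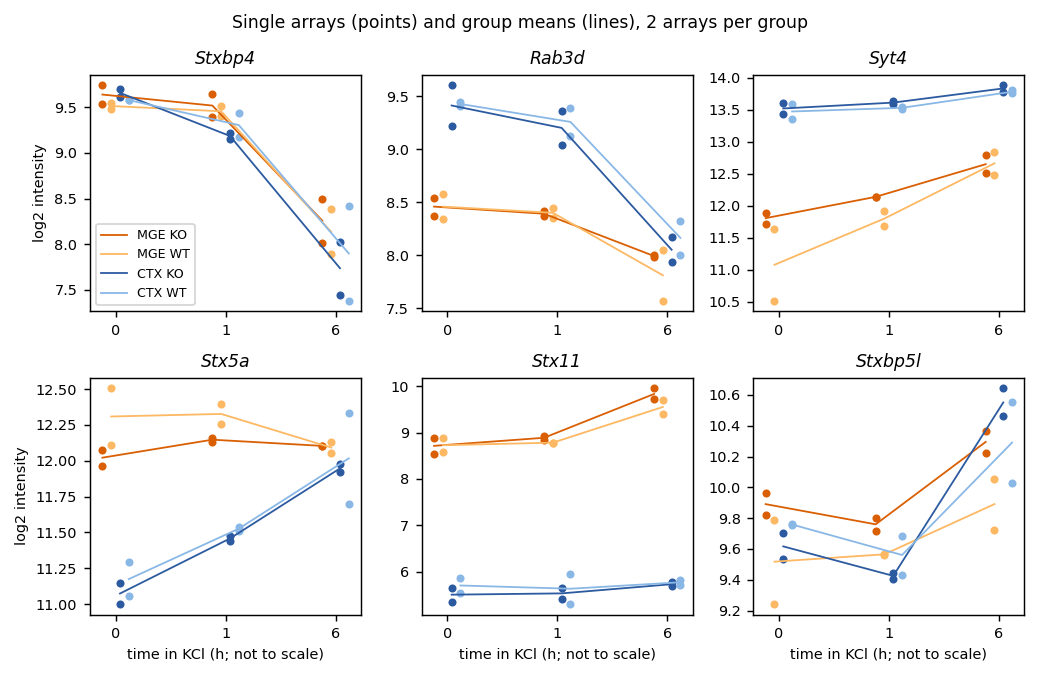
Log2 intensity (vertical axis, a separate scale per panel) of 6 members in single arrays (points) and group means (lines) at 0, 1 and 6 h of KCl (horizontal axis, not to scale). Stxbp4 and Rab3d are closer to their 0 h level at 1 h than at 6 h. The Stxbp4 change at 1 h was -0.47 in CTX KO and -0.27 in CTX WT, neither called. Stx11 lies between 8.54 and 9.95 in MGE arrays and between 5.31 and 5.96 in CTX arrays.

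The other 14 members called at 6 h had no call that held under every alternative. Beside Stxbp5 these were Rab3c, Rims2, Rims3, Snap23, Stx1a, Stx2, Stx4a, Stx7, Stx17, Syn3, Syt3, Sytl2 and Vamp3. Syt3, a calcium-binding synaptotagmin, fell in 3 series, by 1.0 in MGE KO, by 1.25 in MGE WT and by 0.98 in CTX KO. Leaving out arrays gave -0.60 without the first 0 h or the second 6 h array of MGE KO, -1.06 without the second 0 h and -1.12 without the second 6 h array of MGE WT, and -0.83 to -1.14 without any of the 4 CTX KO arrays. Syn3, the synapsin with the earliest developmental expression, fell by 0.72 in MGE WT, by 0.61 in CTX KO and by 0.58 in CTX WT. Leaving out arrays ended these calls at -0.63 to -0.74 (second 0 h or either 6 h array of MGE WT), at -0.55 and -0.38 (second 0 h and first 6 h array of CTX KO) and at -0.35 to -0.63 (either 0 h or first 6 h array of CTX WT). Snap23, the SNAP-25 relative of non-neuronal exocytosis, and Stx7, an endosomal syntaxin, rose in MGE WT by 1.08 and 1.07. Without the second 0 h array those values were 0.98 and 0.42, Snap23 also failed without the second 6 h array (0.99) and Stx7 without the first (0.93). Stx17, a syntaxin of autophagosomes, fell by 0.92 in MGE KO, by 1.01 in MGE WT and by 0.94 in CTX KO. Its calls were lost without any of the 4 MGE KO arrays (-0.75 to -1.08), without the second 0 h or either 6 h array of MGE WT (-0.93 to -1.07), and without the second 0 h (-0.79) or first 6 h array (-0.58) of CTX KO. Vamp3, the cellubrevin of recycling endosomes, rose by 0.65 in CTX WT and failed without the second 0 h (0.47) or either 6 h array (0.67 and 0.63).

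Central genes of fusion are given next on their brightest probe set. Among 12 of them, a subset picked with results known (Stx1a, Snap25, Vamp1, Vamp2, Syt1, Syt7, Cplx1, Cplx2, Rims1, Rab3a, Syn1 and Syn2), Stx1a alone was called at 6 h on that set, and in KO cultures. Other probe sets of Vamp2, Syt1, Rims1, Cplx2 and Syn2 were called at 6 h in at least 1 series. The subset leaves out Rims2, Rims3, Rab3c and Syn3, which were called, and it was not tested against the other members. Snap25 had 13.66 and 13.70 at 6 h in MGE KO, against 13.57 and 13.66 at 0 h. In CTX WT Snap25 had 13.95 and 13.73 at 6 h, against 13.70 and 13.74 at 0 h. In both series the 2 times overlap. In MGE WT Snap25 had 13.68 and 13.58 at 6 h, against 13.54 and 13.12 at 0 h, with every 6 h array higher, and the change of 0.30 (95% interval 0.01 to 0.58) had an adjusted p of 0.116. Vamp1 in CTX KO had 9.46 and 9.42 at 6 h, against 9.06 and 8.80 at 0 h, a change of 0.51 (adjusted p = 0.0672). The 95% intervals of the 12 changes together span -0.71 (Stx1a) to 0.53 (Rims1) in MGE KO, -0.62 (Syt7) to 0.67 (Rims1) in MGE WT, -0.60 (Stx1a) to 0.96 (Vamp1) in CTX KO and -0.48 (Syn2) to 0.64 (Vamp1) in CTX WT. Stx1a, the neuronal plasma membrane syntaxin, fell by 0.45 in MGE KO (adjusted p = 0.0174) and by 0.35 in CTX KO (adjusted p = 0.0346). It had 12.55 and 12.34 at 6 h in MGE KO, against 13.05 and 12.75 at 0 h. Its changes in WT cultures were -0.17 in MGE and -0.19 in CTX, and the genotype by time term was not called in either cell type. The MGE KO call was lost without the first 0 h array (-0.31) or the second 6 h array (-0.35), and the CTX KO call without any of its 4 arrays (-0.29 to -0.41).

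For some members other probe sets gave other calls than the ones above. Of the 73 members, 40 had more than 1 tested probe set, and 22694 probe sets were fitted separately with their own adjustment. In that fit 17.2% of probe sets were called in MGE KO, 24.8% in MGE WT, 37.8% in CTX KO and 36.3% in CTX WT at 6 h. A member whose main probe set was not called had another one called for 5 of the 40 in MGE KO, 7 in MGE WT, 8 in CTX KO and 9 in CTX WT. Calls in opposite directions occurred in 0 of the 40 in each MGE genotype, for Rims2 and Stxbp5 in CTX KO and for Rims2 in CTX WT. These counts have no matching share over all genes with several tested probe sets, so they are not read against a background. Where on the transcript each probe set lies was not analysed here.

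Rab3c, a Rab3 GTPase of synaptic vesicles, was flat in CTX on its main probe set, 1435047_at, with changes of 0.0 in KO and 0.01 in WT. The set 1449494_at had 13.25 and 13.15 at 6 h in CTX KO, against 11.69 and 11.57 at 0 h. In CTX WT it had 13.10 and 12.99 at 6 h, against 11.79 and 11.39 at 0 h, so the times were far apart. It rose by 1.56 ± 0.14 in CTX KO (adjusted p = 1.05e-06) and by 1.45 ± 0.14 in CTX WT. The sets 1432432_a_at and 1432415_at rose as well, by 1.90 and 1.66 in CTX KO and by 1.82 and 1.47 in CTX WT, and all 6 of these calls held under every alternative. In MGE KO the 3 sets rose by 0.55, 0.66 and 1.29. The call of 1449494_at was lost without the second 0 h array (0.51) or either 6 h array (0.56 and 0.55), that of 1432432_a_at without any of the 4 arrays (0.64 to 0.68) and that of 1432415_at without the first 6 h array (1.15). In MGE WT 1432432_a_at and 1432415_at rose by 0.69 and 1.33 under every alternative, and 1449494_at had 0.38 (adjusted p = 0.0572). The main set rose in MGE WT by 0.46, a call lost without the second 0 h array (0.25) or either 6 h array (0.46).

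Rims2, a scaffold of the active zone, gave opposite signs in CTX. Its main set, 1436470_at, had 10.36 and 10.19 at 6 h in CTX KO, against 10.99 and 11.00 at 0 h, and the set 1450761_s_at had 11.39 and 11.16 at 6 h, against 8.83 and 8.88 at 0 h. In CTX WT the main set had 10.43 and 10.01 at 6 h, against 10.92 and 11.21 at 0 h, and 1450761_s_at had 11.11 and 10.85 at 6 h, against 9.05 and 9.03 at 0 h. The main set fell by 0.72 in CTX KO and by 0.85 in CTX WT, and 1450761_s_at rose by 2.42 ± 0.15 and 1.94 ± 0.15 (adjusted p = 6.9e-08 and 4.11e-07). The set 1422809_at also rose by 1.29 in CTX KO and 1.07 in CTX WT. The rises of both sets held under every alternative, and the falls of the main set did not: they were lost without either 0 h or the second 6 h array of CTX KO (-0.64 to -0.73) and without the second 0 h (-0.71) or second 6 h array (-0.64) of CTX WT. With all Rims2 probe sets averaged the change turned positive. In MGE cultures none of the 4 tested sets was called.

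Vamp2, the main vesicular SNARE of the forebrain, did not pass on its main set, 1420834_at, whose changes lay between 0.04 and 0.14 in the 4 series. The set 1420833_at had 11.73 and 11.47 at 6 h in MGE KO, against 10.60 and 10.42 at 0 h. In CTX WT it had 12.41 and 11.93 at 6 h, against 11.51 and 11.28 at 0 h. It rose in all 4 series and under every alternative, by 1.09 ± 0.17 in MGE KO, 1.05 ± 0.17 in MGE WT, 0.83 ± 0.17 in CTX KO and 0.78 ± 0.17 in CTX WT. The set 1422895_at of Vamp4, a SNARE of the Golgi apparatus and endosomes, rose by 0.45 in MGE WT, 0.50 in CTX KO and 0.63 in CTX WT, also under every alternative, and had 0.27 in MGE KO (adjusted p = 0.0554).

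At 1 h 0 of 65 members were called in any series, where 0.444% of all genes were called in MGE KO, 0.574% in MGE WT, 1.1% in CTX KO and 0.864% in CTX WT. At an unadjusted p under 0.05 there were 0, 1, 3 and 1 members in the same order of series. No share of all genes is given at that unadjusted threshold, here and below. The highest value in MGE was that of Syt4, 0.33 ± 0.25 in KO and 0.72 ± 0.25 in WT (adjusted p = 1 and 0.506). In CTX it was that of Stxbp2, a syntaxin-binding protein of non-neuronal secretion, with 0.56 ± 0.24 in KO and 0.65 ± 0.24 in WT (adjusted p = 0.737 and 0.504). Without the first 0 h array of MGE WT, 7 members were called in MGE WT at 1 h.

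Loss of Npas4 left no member called. KO minus WT gave 0 of 65 members at 0, 1 and 6 h in MGE, where 0%, 0.0242% and 0.0323% of all genes were called, and 0 of 65 in CTX, where 0%, 0.00808% and 0.0485% were called. At an unadjusted p under 0.05 there were 14, 3 and 2 members in MGE and 0, 0 and 0 in CTX. Without the share of all genes at that threshold, these unadjusted counts cannot be set against a background. The genotype by time terms at 6 h gave 0 members in MGE (0% of all genes, 2 members unadjusted) and 0 in CTX (0.00808% of all genes, 0 members unadjusted). With so few genes called anywhere in these comparisons, a count of 0 is near the background. In MGE the counts at 0 h and for the genotype by time term depended on which WT 0 h array was left out. No share of all genes is given beside the counts without an array. The widest gap among the same 12 genes at 6 h was that of Stx1a in MGE, with 12.55 and 12.34 in KO against 12.87 and 12.93 in WT. The difference was -0.45 (95% interval -0.71 to -0.20, adjusted p = 0.54). For Snap25 the difference at 6 h was 0.05 (-0.24 to 0.34) in MGE and -0.01 (-0.30 to 0.27) in CTX. For Syt1 it was -0.01 (-0.23 to 0.20) in MGE and 0.03 (-0.18 to 0.25) in CTX. For Stxbp4 it was 0.12 (-0.48 to 0.72) in MGE and -0.16 (-0.76 to 0.44) in CTX, and for Stx5a in CTX -0.07 (-0.43 to 0.29). These intervals bound the differences that 2 arrays per group can show.

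**Figure D3:**
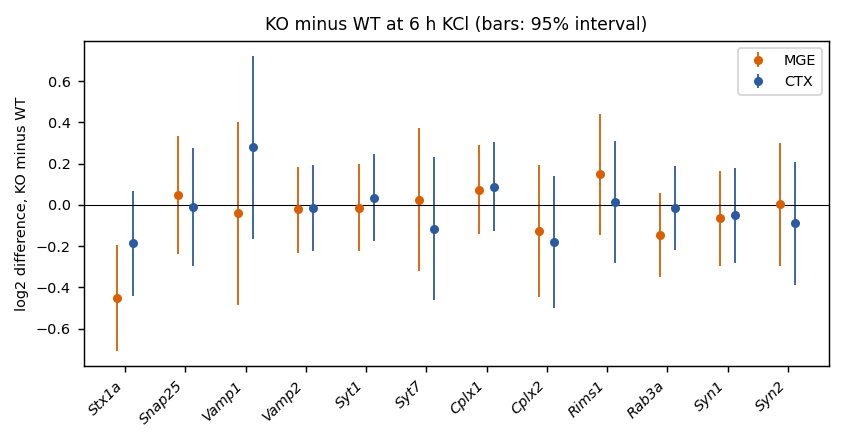
KO minus WT log2 difference (vertical axis) at 6 h of KCl for the 12 central fusion genes in MGE and CTX cultures; bars are 95% intervals. The MGE interval of Stx1a, -0.71 to -0.20, is the one that leaves out 0, and its adjusted p is 0.54.

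Syt10, a calcium sensor of a separate secretory pathway in olfactory neurons, was below the array median in all 24 arrays and was not tested. Its signal in CTX nevertheless differed between times. It had 5.15 and 5.66 at 6 h in CTX KO, against 3.91 and 4.22 at 0 h, and in CTX WT 4.74 and 5.19 at 6 h, against 4.16 and 4.32 at 0 h. When dim probe sets were kept in the fit the change was 1.34 ± 0.18 in CTX KO (adjusted p = 4.85e-05) and 0.72 ± 0.18 in CTX WT (adjusted p = 0.00695). The genotype by time term there was 0.62 ± 0.25 (adjusted p = 1). In MGE cultures the change was -0.13 in KO and -0.20 in WT, neither called.

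In silenced WT cultures 41 members differed between the cell types. Of the 65 tested, 21 were higher and 20 lower in MGE than in CTX at 0 h, beside 34.7% and 29.5% of all genes and 64.2% in either direction. The members' share of 63.1% is near that background. In all, 25 of the 41 calls held under every alternative. Without the second MGE WT 0 h array 31 were called, and without the first 47. Markers of other cells also differed at 0 h. The mean over progenitor markers was 8.12 and 8.79 in MGE WT against 7.57 and 7.01 in CTX WT, with 2 of 6 tested called higher and 1 lower. Over oligodendrocyte markers it was 8.22 and 8.64 in MGE WT against 7.83 and 7.72 in CTX WT, with 1 of 4 higher and 0 lower. Over general neuron markers it was 12.98 and 12.62 in MGE WT against 13.25 and 13.36 in CTX WT, with 0 of 5 higher and 4 lower. That neuron list includes Snap25, which is among the 4 lower and is itself among the 41 members. The astrocyte and vascular lists had 1 of 5 and 1 of 4 higher and 0 lower. Their part in the differences of the 41 members was not tested.

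**Figure D4:**
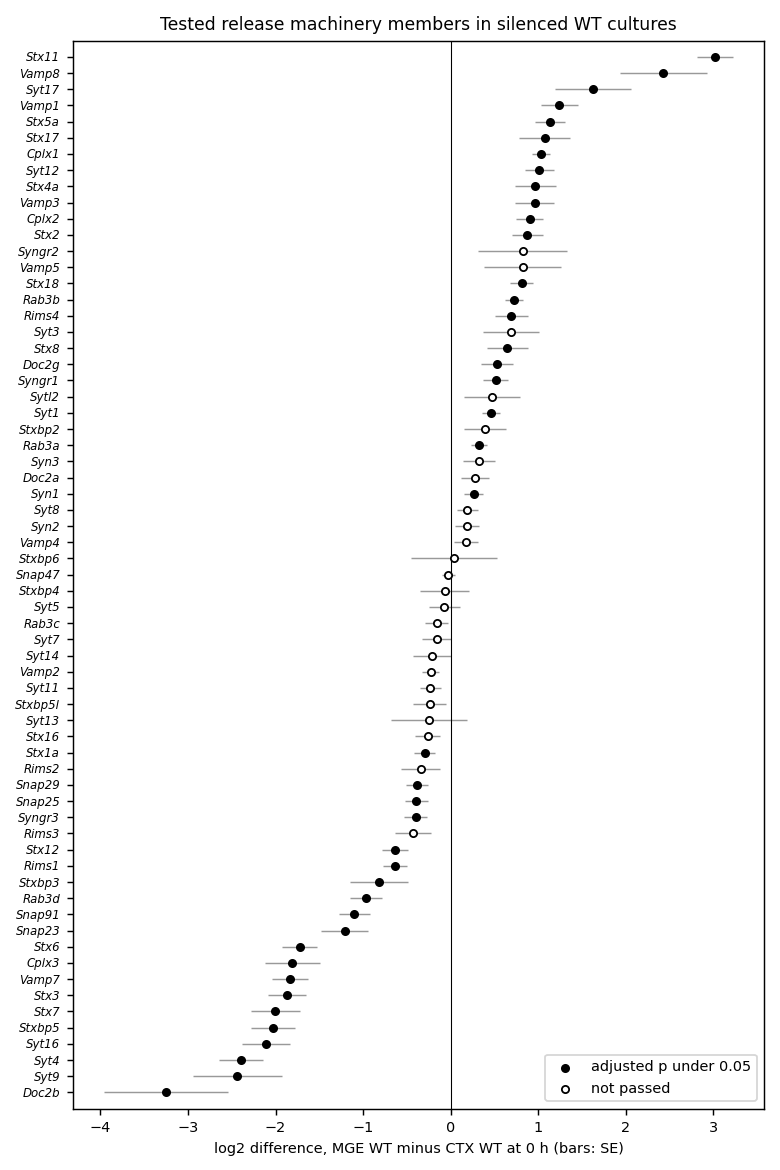
Log2 difference, MGE WT minus CTX WT, at 0 h (horizontal axis; bars are SE) for the 65 tested members in order of size; filled points passed the test. Stx11 is at the top with 3.02 and Doc2b at the bottom with -3.25.

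Among calcium sensors, Doc2b, a high-affinity sensor of spontaneous and asynchronous release, had 7.38 and 6.14 in MGE WT, against 9.64 and 10.38 in CTX WT. Syt9, a fast sensor, had 8.63 and 8.02 in MGE WT, against 10.73 and 10.80 in CTX WT. The groups were far apart for both, with differences of -3.25 ± 0.71 (adjusted p = 0.0012) and -2.44 ± 0.51 (adjusted p = 0.000854), the second of these 5.42-fold lower in MGE. The mean of Doc2b in MGE WT lay below the array median, so its difference is set against a dim signal and no fold is given. Syt1, the main fast sensor of the forebrain, had 13.39 and 13.16 in MGE WT, against 12.77 and 12.87 in CTX WT, a difference of 0.46 ± 0.10 (adjusted p = 0.00111). Syt4 was 5.26-fold lower in MGE, by -2.39 ± 0.25, and Syt16, a synaptotagmin-like protein without calcium binding, differed by -2.11 ± 0.27. Syt17, another atypical synaptotagmin, was higher by 1.63 ± 0.43, a call lost without the first CTX array (1.26).

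Among regulators of the SNARE complex, Cplx1 and Cplx2, the complexins of most brain synapses, were higher in MGE. Cplx1 had 13.86 in both MGE WT arrays, against 12.94 and 12.72 in CTX WT, a difference of 1.03 ± 0.10 (adjusted p = 1.91e-06). Cplx2 differed by 0.90 ± 0.15 (adjusted p = 0.000158). Cplx3, known from ribbon synapses of the retina, went the other way. It had 5.79 and 6.45 in MGE WT, below the array median, against 7.53 and 8.31 in CTX WT, a difference of -1.81 ± 0.31 (adjusted p = 0.000202). Stxbp5 was lower in MGE by 2.03 ± 0.25. Of the vesicular SNAREs, Vamp1 had 10.24 and 10.18 in MGE WT, against 9.09 and 8.84 in CTX WT, higher by 1.24 ± 0.21 (adjusted p = 0.000164). Vamp2 had -0.23 (adjusted p = 0.053) on its main set, while another of its sets was called. Of the plasma membrane SNAREs, Snap25 was lower in MGE by 0.39 and Stx1a by 0.30. Neither call was stable: Snap25 failed without the second MGE array (-0.18) or either CTX array (-0.37 to -0.41), and Stx1a without any of the 4 arrays (-0.27 to -0.33).

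Among active zone and vesicle proteins, Rab3b, a Rab3 GTPase found in inhibitory terminals, was higher in MGE by 0.72 ± 0.10 (adjusted p = 5.33e-05). Rims1, the main RIM of the forebrain, was lower by 0.63 ± 0.14 (adjusted p = 0.00118). Snap91, an adaptor of clathrin-mediated vesicle retrieval, had 12.57 and 11.83 in MGE WT, against 13.22 and 13.37 in CTX WT, lower by 1.10 ± 0.18. Rab3d was lower by 0.97 ± 0.18. Rab3a and Rims4 were higher by 0.32 and 0.69, calls lost without the second CTX array (0.30 for Rab3a) and without the second MGE array (0.56 for Rims4).

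Among SNAREs of other membranes, Stx11 had 8.88 and 8.58 in MGE WT, against 5.55 and 5.86 in CTX WT, below the array median in both CTX arrays, a difference of 3.02 ± 0.20 (adjusted p = 6.62e-08). Vamp8, of endosomes and secretory granules, had 7.43 and 9.11 in MGE WT, against 6.00 and 5.68 in CTX WT, a difference of 2.43 ± 0.50 (adjusted p = 0.000758). The MGE arrays differ widely for Vamp8, but both lie above both CTX arrays. As for Stx11, both CTX arrays were below the array median, so both differences are set against dim signals. Microglial markers also differed between the cell types: 3 of 5 tested were higher in MGE WT and 0 lower, and the mean over the 7 listed genes was 6.96 to 7.28 in MGE WT against 6.18 to 6.27 in CTX WT. The defining microglial genes Cx3cr1 and Itgam were below the array median in both, at 5.45 and 4.41 in MGE WT against 5.26 and 4.51 in CTX WT. The part of microglia in the Stx11 and Vamp8 differences was not tested. SNAREs and partners of other membranes went both ways, with 9 of 23 tested higher and 8 lower in MGE WT. Lower were Vamp7 by 1.84 ± 0.20, Stx7 by 2.00 ± 0.28, Stx6 by 1.73 ± 0.20 and Stx3, a syntaxin of apical membranes and photoreceptors, by 1.86 ± 0.22. Among other endosomal SNAREs Vamp3 was higher by 0.96 ± 0.22, a call lost with its probe sets averaged (0.35). Vamp4 had 0.17 (adjusted p = 0.277) on its main set, while another of its sets was called. Stx8 was higher by 0.65 ± 0.23, a call lost without the second MGE array (0.34), without either CTX array (0.68 and 0.61) or with its probe sets averaged (0.25). Stx5a was higher by 1.13 ± 0.17 and Stx18, which acts at the endoplasmic reticulum, by 0.81 ± 0.13.

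In the fit of single probe sets 63.3% were called between MGE WT and CTX WT. Of the 40 members with several tested sets, 4 had sets called in opposite directions: Snap23, Stx12, Syt1 and Vamp3. For 10 others only a set other than the main one was called. These were Rab3c, Rims2, Rims3, Stxbp4, Stxbp5l, Syn2, Syt11, Syt7, Vamp2 and Vamp4. Of the 25 with the main set called, 18 had another set called in the same direction. Here too no share over all genes with several tested sets is given beside the counts. The Syt1 set 1421990_at differed by -1.32 ± 0.28 while its main set differed by 0.46. The Vamp3 set 1421102_a_at differed by -1.22 ± 0.27 while its main set, 1456245_x_at, differed by 0.96. For Snap23 the sets gave -1.21 and 0.88, the second lost without the second MGE array (0.45) or the first CTX array (0.79), and for Stx12 they gave -0.63 and 0.50, the second lost without the second MGE array (0.45) or the second CTX array (0.43). Syn2 had 0.18 (adjusted p = 0.254) on its main set and 3.22 ± 0.22 and 2.68 ± 0.21 on 1440762_at and 1435511_at.

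The response at 6 h was also compared between the cell types in WT cultures. Of 65 members, 2 had a more positive change in MGE than in CTX and 2 a more negative one, beside 6.99% and 3.92% of all genes and 10.9% in either direction. Syt4 (1.28 ± 0.35, adjusted p = 0.0324) and Stxbp5 (1.28 ± 0.36, adjusted p = 0.0347) were on the positive side, and Stx5a (-1.06 ± 0.24, adjusted p = 0.0125) and Syt12 (-0.89 ± 0.23, adjusted p = 0.0265) on the negative side. Each of the 4 lost its call when some single array was left out. Without the second MGE 0 h array the values were 0.72 for Syt4, 0.77 for Stxbp5 and -0.86 for Stx5a, and without the second CTX 0 h array they were 1.16, 1.19 and -0.94, with Syt12 at -0.87. Syt4 also failed without the first MGE 6 h (1.09), first CTX 0 h (1.39) or second CTX 6 h array (1.25), and Syt12 without either MGE 6 h (-0.86 and -0.92), the first CTX 0 h (-0.91) or the second CTX 6 h array (-0.88). Stxbp5 failed without either MGE 6 h (1.15 and 1.40), the first CTX 0 h (1.36) or the second CTX 6 h array (1.23). The count of members was 17 without the first MGE 0 h array, 7 without the first CTX 6 h array, 2 without the second MGE 6 h array, 0 without the second CTX 0 h array and 1 without any of the other 4. Among single probe sets, of which 11.3% were called, those of Rims2 and Rab3c stood apart more firmly. The change of Rims2 1450761_s_at was lower in MGE by 1.71 ± 0.21 (adjusted p = 0.00039), and that of Rab3c 1449494_at by 1.07 ± 0.20 (adjusted p = 0.00422), both under every alternative. At 1 h the same comparison gave 0 members (0.0162% of all genes, 1 member unadjusted), and 3 without the first MGE 0 h array.

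The other genes of the release pathway were taken from 6 lists of 56 genes, of which 53 were tested. Counts of these genes that rest on MGE WT at 0 h, whose 2 arrays differed most, are not given without either array. At 6 h 2 rose and 0 fell in MGE KO, 8 rose and 0 fell in MGE WT, 5 rose and 5 fell in CTX KO, and 4 rose and 4 fell in CTX WT. The share that rose was 3.77% in MGE KO, 15.1% in MGE WT, 9.43% in CTX KO and 7.55% in CTX WT, beside 4.84%, 9.53%, 11.3% and 10.5% of all genes. The share that fell was 0% in both MGE genotypes, 9.43% in CTX KO and 7.55% in CTX WT, beside 12.3%, 15.7%, 24.9% and 24.8% of all genes in the 4 series. Sv2c, a vesicle glycoprotein, rose in all 4 series, by 2.76 in MGE KO, 3.64 in MGE WT, 2.54 in CTX KO and 2.21 in CTX WT. Sv2b, its paralogue, rose by 1.91 in MGE WT and fell by 1.97 in CTX KO and by 1.06 in CTX WT, the last call lost without either 0 h array (-1.17 and -0.94) or the second 6 h array (-0.85). Its response differed between the cell types by 2.97 (adjusted p = 0.00186). Unc13a, the priming factor Munc13-1, had 0.97 in MGE WT, a call lost without the second 0 h array (0.48) or the first 6 h array (0.90). Slc6a17, a vesicular amino acid transporter, rose by 0.72 in CTX KO and 0.60 in CTX WT. At rest 19 of 53 (35.8%) were higher and 18 (34%) lower in MGE WT than in CTX WT, near the 34.7% and 29.5% of all genes. The vesicular GABA transporter Slc32a1 was higher by 3.47 and Rph3a, a Rab3 effector, by 3.21. The vesicular glutamate transporter Slc17a7 was lower by 5.91, Sv2b by 6.40 and Unc13a by 2.12.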

How the data were processed

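Arrays were assigned to groups by the labels, 2 for each cell type, genotype and time. Per the submitters' processing notes the values were made with RMA, a method of background correction, quantile normalization and probe set summary; no version is given in the sources used here. The authors deposited linear intensity values for 45101 probe sets, from 6.61 to 29464; they were converted to log2 here without further scaling. Changes common to most transcripts are removed by quantile normalization. The number of arrays limits the precision.

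Annotation named 1 gene for 34958 probe sets, several for 932 and none for 9211; all 73 members matched RefSeq (GRCm38.p6). The brightest probe set on average stood for each gene, and 12378 genes that exceeded the median of the array on 2 arrays or more were tested with limma 3.58.1 in R 4.3.3. The fit had 12 group means without a replicate block, 12 residual and 2.408 prior degrees of freedom, with two-sided tests and Benjamini-Hochberg adjustment over all tested genes, in 19 comparisons. The labels do not say that repeats came from separate cultures or animals, so p-values measure only the spread between these arrays. The procedure was tested on simulated data with independent arrays, which cannot show how shared deviations of same-numbered arrays affect the p-values.

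Members and lists were chosen with earlier results of these data known. Any member could be named: called members with the largest changes (up to 10 in each direction), a core set, and up to 4 called genes of each pathway list. Alternatives were a replicate block, cyclic loess, no filter on dim probe sets, the mean of all probe sets of a gene, arrays of 1 cell type, an intensity trend of the variance, and leaving out each array. Where 1 array remained in a group, it was assumed to vary like the other groups.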

Additional observations from a re-analysis of the deposited data

Results flagged for a closer look

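The response to 6 h of KCl in WT cultures differed between the cell types for 4 members, by limma's test of the difference itself (change in MGE minus change in CTX). The difference was 1.28 for Syt4, 1.28 for Stxbp5, -0.89 for Syt12 and -1.06 for Stx5a, and each of these calls was lost when at least 1 array was left out. In the fit of single probe sets the difference was -1.07 for Rab3c 1449494_at, -1.12 for Rab3c 1432432_a_at and -1.71 for Rims2 1450761_s_at, which were called under every alternative. It was -1.12 for Rims2 1422809_at, 1.35 for Rab3d 1418890_a_at and -1.15 for Stx5a 1448267_at, which were not. Without the second MGE WT 0 h array those last 3 values were -0.96, 1.15 and -0.90.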

How the results depend on the processing

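The number of members called in MGE KO at 6 h was 8, and it became 13 with the replicate block, 5 with no filter on dim probe sets and 5 with arrays of MGE only. The cell type by time comparison at 6 h gave 4 members (6.15%, beside 10.9% of all genes). With the replicate block it gave 8 (12.3%, beside 16.3%), and with the mean of all probe sets 2. No share of all genes is given for the fits with no filter, with arrays of MGE only or with averaged probe sets. Averaging all probe sets turned the sign of Rims2 in CTX KO (0.65) and CTX WT (0.35), and of Apba1, a presynaptic adaptor, in MGE WT at 6 h (-0.036) and in the cell type by time comparison (-0.19); the cause was not tested. Leaving out each array in turn, the count of members called ranged between 3 and 6 in MGE KO at 6 h, 4 and 27 in MGE WT at 6 h, 5 and 8 in CTX KO at 6 h, and 5 and 9 in CTX WT at 6 h. It ranged between 0 and 7 in MGE WT at 1 h, 0 and 21 for KO against WT in MGE at 0 h, 0 and 6 for the MGE genotype by time term, 31 and 47 for MGE against CTX, 0 and 3 for cell type by time at 1 h and 0 and 17 at 6 h. The other comparisons gave 0 members in each case.

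Of 89 member results, 37 kept their call under every alternative, 52 lost it under at least 1, and 2 of these reversed. Of 81 results on other probe sets, 43 kept their call, 38 lost it and 0 reversed. Of 31 results on other genes of the release pathway, 14 lost their call under at least 1 alternative and 2 reversed. Repeat numbers do not tie arrays together by any label. The deviations of same-numbered arrays correlated above 0.1 in 15 of 15 pairs of groups within CTX, in 13 of 15 within MGE and in 2 of 36 between the cell types. With the replicate block the counts at 6 h were 13 in MGE KO (20% of members, beside 21.3% of all genes under the same block), 19 in MGE WT (29.2% beside 30.5%), 18 in CTX KO (27.7% beside 41.1%) and 14 in CTX WT (21.5% beside 40.7%). They were 44 for MGE against CTX (67.7% beside 65.7%), and 0 for KO against WT at every time. With 2 arrays in a group, differences smaller than the intervals given were not detectable. Dim probe sets near or under the array median limit the values of Syt12, Syt10 and Doc2g. The same holds for Cplx3, Doc2b and Snap23 in MGE, and for Stx11, Vamp8 and Sytl2 in CTX.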
